A study of Mus musculus with 12 samples.

Results

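The 3 vehicle-treated Rd76-9 tumors of a 12-tumor study were described here as the untreated state of this rhabdomyosarcoma. They were chosen by their titles as the control tumors m1, m2 and m3, each from 1 mouse, and no measured value entered the choice. Rd76-9 is a murine embryonal rhabdomyosarcoma line that was raised with methylcholanthrene in a female C57BL/6 mouse, and the cells were injected with Matrigel under the flank skin of young adult wild-type C57/Bl6J mice. The study asked how low-dose vincristine (VCR), which binds tubulin, and RCM1, an inhibitor of the transcription factor FOXM1, act together. The vehicle group received saline and empty nanoparticles by the series text, although 1 label of these tumors also names the folic acid nanoparticle with RCM1. The other 9 tumors, 3 per group, received VCR at 0.25 mg/kg, RCM1 nanoparticles with folic acid (RCM1-NPFA) at 8 µg, or both, and they served here as the background for the vehicle tumors. All tumors were dissected at day 16 after injection, so each library holds cancer cells of 1 line together with the host cells of the tumor.

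Rhabdomyosarcoma is a soft tissue cancer of children that takes on the identity of early skeletal muscle without completing it. In normal myogenesis PAX3 and PAX7 mark progenitors, MYF5 and MYOD1 commit them to muscle, and myogenin and MRF4 (*Myf6*) turn on the genes of the contractile fibre. Pathologists recognise the tumor by desmin, MYOD1 and myogenin, and the embryonal type is known for signalling by insulin-like growth factor 2 and fibroblast growth factor receptors.

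The libraries of m1, m2 and m3 held 31615720, 29342195 and 30905970 estimated counts, where the whole series spanned 29342195 to 32108055. Levels are given as TPM, a transcript share that is corrected for transcript length so that genes can be compared, and differences between tumors mostly as CPM, a share of the counts without that correction. Of 38898 genes, 12961 reached 1 TPM in each of the 3 tumors (33.3%), 1299 reached 100 TPM, and 128 reached 1000 TPM. Another 17273 genes (44.4%) had 3 or fewer counts in every vehicle tumor, which was taken as not detectable at this depth. A count of 3 stood for 0.0949, 0.102 and 0.0971 CPM in m1, m2 and m3. Each pair of vehicle tumors differed by more than the sampling noise of their counts, with a chi-squared per degree of freedom of 31.4 for m1 and m2, 48.8 for m1 and m3, and 32.5 for m2 and m3, so no pair was treated as 1 library deposited again.

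The transcriptome was led by the machinery of protein synthesis. The most abundant gene was the elongation factor *Eef1a1*, at 10977, 10737 and 11951 TPM in m1, m2 and m3 (11222 ± 643, SD, n = 3). Of the 20 most abundant genes, 15 encode ribosomal proteins, led by *Rpl41* at 8533 ± 477 TPM, *Rplp1* at 8022 ± 649 and *Rps2* at 7169 ± 719. The other 12 were *Rpl23a*, *Rps18*, *Rpl28*, *Rps26*, *Rps12*, *Rpl13*, *Rps27*, *Rpl36*, *Rpl10*, *Rpl19*, *Rps28* and *Rplp0*, with means of 4620 to 6858 TPM. The other members of the 20 were the galectin *Lgals1* (6771 ± 151), the calcium-binding protein *S100a4* (6484 ± 651), the cyclophilin *Ppia* (5630 ± 268) and *Tpt1*, the translationally controlled tumor protein (5443 ± 395). These 20 genes held 12.3%, 11.95% and 13.5% of all TPM, and the 86 ribosomal protein genes held 24.8%, 24.4% and 27.3%, most in m3 on both measures. Many ribosomal protein genes have near-identical copies elsewhere in the genome, so the division of reads among them is uncertain.

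Vimentin (*Vim*), the intermediate filament of mesenchymal cells, stood at 3388, 3356 and 4087 TPM. Markers of skin epithelium were low, and 4 of 13 had 3 or fewer counts in every tumor. The summed level of that list was 9.86, 34.6 and 5.57 TPM, highest in m2, where *Krt19* reached 11.7 TPM against 1.502 in m1 and 0.452 in m3.

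Of the muscle bHLH factors, *Myf5* was expressed in the vehicle tumors, while *Myod1* and *Myog* were not detectable. *Myf5*, the earliest of the muscle bHLH factors, was present at 45.2, 59.9 and 52.2 TPM. *Myod1* had 1 count in m1 and 0 in m2 and m3, and *Myog* had at most 2 counts in any tumor. The satellite cell factor *Pax7* likewise had at most 2 counts, whereas *Pax3* was low but measurable at 1.69, 1.26 and 1.27 TPM, and *Myf6* lay at 0.574, 0.668 and 0.466 TPM. These levels differed little among the 3 tumors. In the treated tumors *Myf5* ranged from 38.8 to 56.1 TPM, *Myod1* from 0 to 2.19 and *Myog* from 0 to 2.44, so neither factor passed 2.44 TPM in any tumor.

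The partners that act with these factors were present. Of the 22 cofactors listed, 18 reached 1 TPM in every vehicle tumor. *Tcf3*, which encodes the E proteins that pair with muscle bHLH factors, was highest at 93.7, 97.0 and 105 TPM. *Mef2d* and *Mef2a*, partners of myogenin at muscle promoters, were at 43.7, 47.9 and 56.1 TPM and at 38.7, 37.4 and 31.2 TPM. Serum response factor (*Srf*) was at 56.4, 57.7 and 61.1 TPM. Inhibitors of muscle bHLH factors were expressed at the same order of level, with 13 of 17 at 1 TPM in every tumor. *Twist1* was at 54.8, 46.8 and 54.9 TPM, *Bhlhe40* at 40.8, 61.5 and 57.7, and *Snai2*, a repressor that holds myoblasts back from differentiation, at 28.9, 43.6 and 55.2. *Snai2* and *Bhlhe40* were lowest in m1, whereas *Twist1* was lowest in m2.

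Myogenin is the gene at which this programme normally passes to differentiation, so its promoter is shown beside its undetected transcript. The window is the 250 bases before the RefSeq start of *Myog*, at chr1:134289754-134290003 of GRCm38.p6 on the plus strand, 5′ to 3′, with the core of the MEF2 motif in capitals.
Myog: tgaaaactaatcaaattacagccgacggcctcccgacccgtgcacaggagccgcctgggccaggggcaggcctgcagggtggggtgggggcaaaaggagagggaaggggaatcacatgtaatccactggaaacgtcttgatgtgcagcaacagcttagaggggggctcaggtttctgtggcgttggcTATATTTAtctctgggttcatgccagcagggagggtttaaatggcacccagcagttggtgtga
The letters TATATTTA were searched on both strands, matched once, and begin 63 bases before the start. The same letters were found in 1.12% of 32851 RefSeq promoter windows of that length. The match is a description of the sequence, and the binding of MEF2 proteins was not measured.

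Markers used to diagnose rhabdomyosarcoma were mostly low. Of 13 markers, 4 reached 1 TPM in all vehicle tumors and 3 (*Myod1*, *Myog* and *Pax7*) were not detectable. M-cadherin (*Cdh15*), the adhesion protein of myoblasts and satellite cells, was the highest at 78.1, 92.7 and 105 TPM, followed by the neural cell adhesion molecule *Ncam1* at 29.8, 23.2 and 26.4 TPM. Desmin (*Des*) was at only 5.77, 4.45 and 5.88 TPM, and cardiac troponin T (*Tnnt2*) at 6.30, 4.11 and 2.03. The fetal receptor subunit *Chrng*, the receptor kinase *Fgfr4* and the embryonic myosin *Myh3* were all under 1 TPM in every tumor. Of the markers of the labelled tumor type, *Myf5*, *Cdh15* and the cofactors were present, while *Myod1* and *Myog* were not detectable and desmin was low. Among the other markers named for its subtypes, *Hmga2*, a chromatin protein of the fusion-negative form, was at 56.4, 62.4 and 52.9 TPM, and the imprinted gene *Peg3* at 43.7, 38.1 and 37.9, while *Alk*, *Olig2*, *Cnr1* and *Muc4* had 3 or fewer counts in every tumor.

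Some genes of the myoblast surface were stronger than those of fusion. Integrin alpha 7 (*Itga7*), the laminin receptor of muscle, was at 159, 140 and 209 TPM, and the acetylcholine receptor subunits *Chrnb1* and *Chrnd* were at 116, 145 and 118 TPM and at 44.3, 62.6 and 74.5 TPM. In contrast the transcripts of the fusion proteins were not detectable, with 0 counts of myomaker (*Mymk*) in the 3 tumors and at most 3 of myomixer (*Mymx*). A count of 0 allows up to 3 counts per library, the CPM limits given above, and it covers counting error only. Over the 25 embryonic and fusion genes, 13 reached 1 TPM in every tumor and 3 were not detectable. Not all surface genes were strong. *Chrng*, a subunit of the same receptor as *Chrnb1* and *Chrnd*, was under 1 TPM in every tumor, and the subunit *Chrna1* did not reach 1 TPM in all of them.

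Of the 58 adult fibre genes, 15 (25.9%) reached 1 TPM in every vehicle tumor, against 33.3% of all genes. Another 6 of the 58 were not detectable, where 44.4% of all genes were not. The list summed to 3105, 2976 and 2526 TPM, because tropomyosin 1 (*Tpm1*), which non-muscle cells also use, alone supplied 2226, 2286 and 1839 TPM. *Tpm2* followed at 211, 220 and 243 TPM, beta-enolase (*Eno3*) at 286, 269 and 261, and fast troponin I (*Tnni2*) at 155, 116 and 80.4. The thick filament genes together came to 27.3, 3.80 and 2.65 TPM. Skeletal actin (*Acta1*) was at 23.3, 1.62 and 0.461 TPM, muscle creatine kinase (*Ckm*) at 15.5, 0.0447 and 0.121, and the fast myosin *Myh4* at 6.39, 0 and 0. These 3 genes were higher in m1 than in m2 and m3. The fibre genes with 3 or fewer counts in every tumor were *Myh7*, *Lmod2*, *Lmod3*, *Myoz2*, *Csrp3* and *Sln*.

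**Figure D1:**
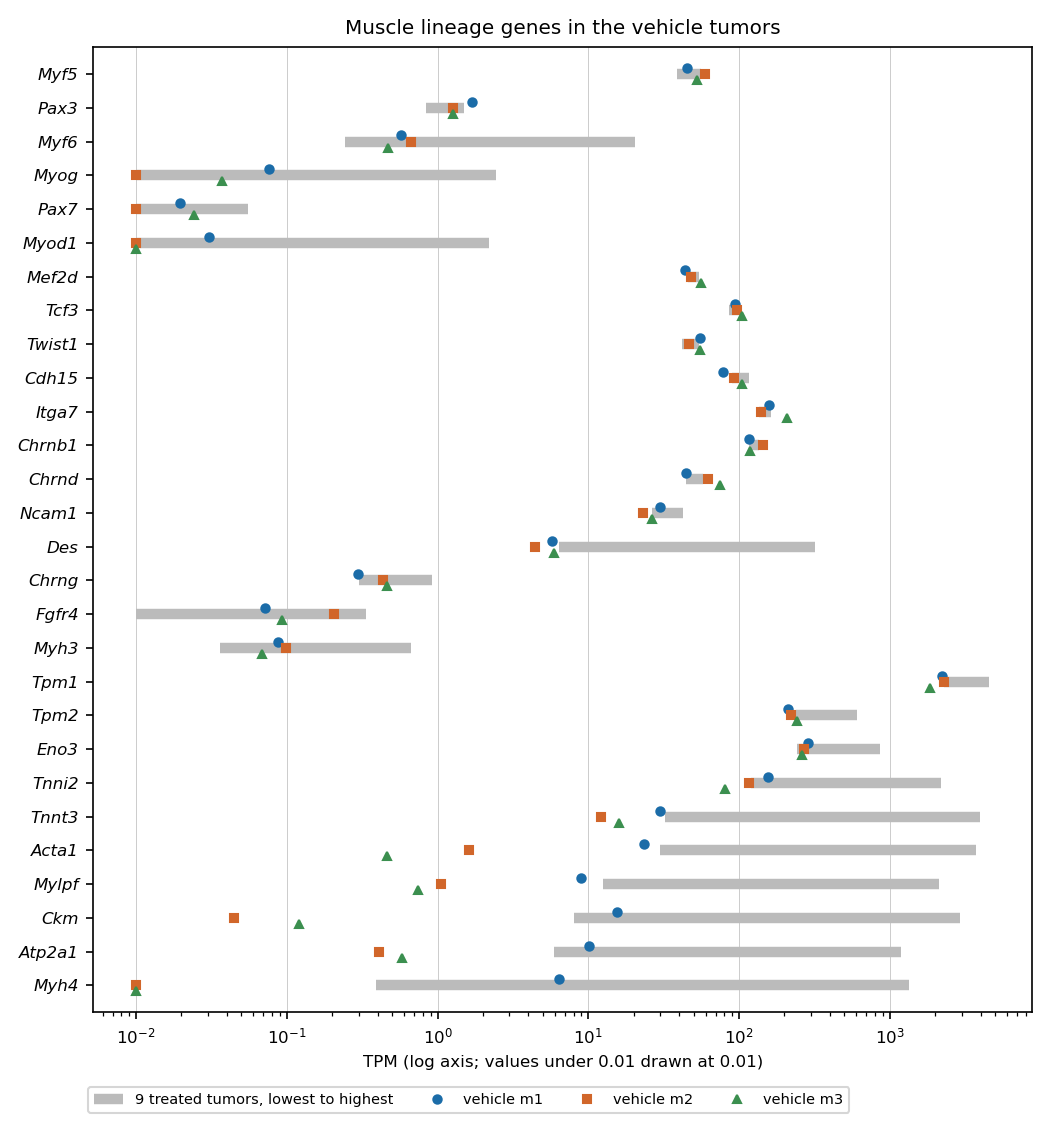
Level of 28 muscle lineage genes in TPM on a log axis, with a circle, square and triangle for the vehicle tumors m1, m2 and m3 and a grey bar from the lowest to the highest of the 9 treated tumors. *Myf5*, *Cdh15* and *Itga7* sit between 45.2 and 209 TPM in all 3 vehicle tumors, *Myod1* and *Myog* lie under 0.1 TPM, and *Acta1* and *Mylpf* lie below all treated tumors.

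Against the treated tumors, adult fibre genes lay low in the vehicle tumors. The list summed to 3170 TPM at the lowest, 6395 at the median and 32766 TPM at the highest treated tumor, above every vehicle tumor. For 29 of the 54 members with enough counts to test, each vehicle tumor lay below all 9 treated tumors, against 2.5% of the 17602 genes tested. The vehicle group was compared with the mean of the 3 treated groups by edgeR's quasi-likelihood test with Benjamini-Hochberg adjustment and a threshold of 0.1. EdgeR called 0 of the 54 lower, where 0.0227% of all genes were called lower, and the smallest adjusted p in the list was 0.109. An unadjusted p under 0.05 with a lower vehicle level was reached by 50 of the 54, against 8.74% of all genes tested. The DESeq2 Wald test called 47 lower, against 3.86% of all genes, and limma-voom called 0. A gene could pass the count filter through treated tumors alone, and its direction was then fixed in advance. Of the 12 thick filament genes, 0 reached 1 TPM in every vehicle tumor, yet 9 were tested and all 9 had an unadjusted p under 0.05 with a lower vehicle level. The counts in this list are therefore not a fair comparison with the shares of all genes. The treated tumors spread widely, as with *Acta1* at 30.1 to 3701 TPM and *Ckm* at 7.98 to 2911, and the calls differed by tool. In bulk tissue, fewer cells of a type and less RNA per cell cannot be told apart, and the amount of host muscle in each dissected piece was not measured.

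Growth factors were led by secreted proteins of matrix and myeloid biology. Osteopontin (*Spp1*) was the highest of 74 genes listed, at 1973, 1450 and 1562 TPM. It was followed by the chemokine *Cxcl12* at 501, 415 and 444 TPM, the granulin precursor *Grn* at 373, 326 and 368, *Ccn1* at 294, 221 and 250, and *Csf1*, which sustains macrophages, at 232, 266 and 258. Vascular endothelial growth factor A (*Vegfa*), which drives vessel growth, was at 149, 183 and 177 TPM, *Vegfb* at 87.8, 96.2 and 115, and transforming growth factor beta 1 (*Tgfb1*) at 99.1, 74.1 and 109. Of the whole list, 41 genes reached 1 TPM in all 3 tumors and 9 were not detectable.

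Fibroblast growth factors were few. Of 21 listed, 5 reached 1 TPM in each vehicle tumor, and *Fgf11*, an intracellular member of the family, was highest at 52.1, 77.1 and 73.7 TPM. *Fgf7* was at 15.5, 19.4 and 15.1 TPM, and the stress-induced hormone *Fgf21* at 5.71, 20.2 and 14.2, lowest in m1. The muscle growth inhibitor myostatin (*Mstn*) and *Fgf6*, a factor of embryonic muscle, had 0 counts in the 3 tumors.

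Insulin-like growth factor 2, the growth factor most often linked to embryonal rhabdomyosarcoma, was low and uneven. *Igf2* was at 6.81, 3.54 and 14.3 TPM, which put m3 above m1 and m1 above m2, and the treated tumors spanned 3.77 to 23.8. The ligand *Igf1* was at 2.41, 1.997 and 2.26 TPM and its receptor *Igf1r* at 16.0, 15.5 and 13.7. *H19*, the noncoding RNA imprinted in opposition to *Igf2* at the same locus, was far higher at 188, 293 and 276 TPM, and the imprinted gene *Mest* was at 236, 337 and 292. The binding proteins that hold these ligands outside the cell were abundant, with *Igfbp6*, which prefers IGF2, at 552, 381 and 575 TPM, and *Igfbp3* at 334, 231 and 273. Both binding proteins were lowest in m2.

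Among 32 receptor tyrosine kinases, 21 reached 1 TPM in every vehicle tumor. *Axl*, a receptor for *Gas6*, was highest at 398, 373 and 364 TPM, and its ligand *Gas6* was at 25.4, 30.02 and 28.1. The macrophage receptor *Csf1r* was at 172, 136 and 153 TPM, the ephrin receptor *Epha2* at 86.7, 88.3 and 79.9, and *Pdgfrb* at 86.5, 52.8 and 72.1. Of the fibroblast growth factor receptors, *Fgfr1* was at 68.9, 50.2 and 79.1 TPM while *Fgfr4* was at 0.0715, 0.207 and 0.0928. *Alk*, *Ros1* and *Erbb4* had 2 or fewer counts in each tumor. The epidermal growth factor receptor *Egfr* was at 29.6, 32.7 and 30.3 TPM, above the 16.0 to 23.0 of all treated tumors.

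**Figure D2:**
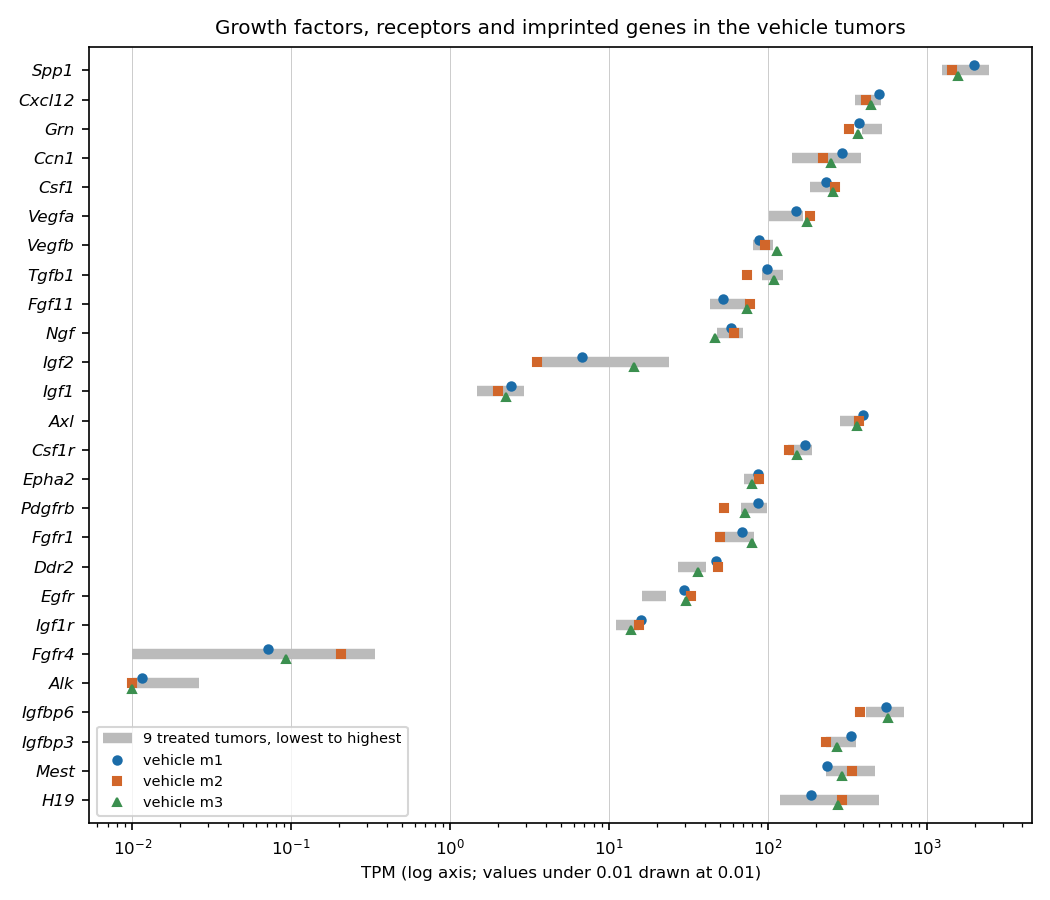
Level of 26 growth factor, receptor, binding protein and imprinted genes in TPM on a log axis, with symbols for the vehicle tumors m1, m2 and m3 and a grey bar from the lowest to the highest of the 9 treated tumors. *Spp1* lies near the top at 1450 to 1973 TPM, *Igf2* spreads from 3.54 to 14.3, and all 3 vehicle values of *Egfr* lie above the treated bar.

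Cell cycle genes were expressed throughout, and all 40 listed reached 1 TPM in every vehicle tumor. *Foxm1*, the transcription factor that RCM1 is meant to inhibit, was at 54.7, 66.2 and 50.5 TPM, and the treated tumors ranged from 55.5 to 68.7. The proliferation marker *Mki67* was at 98.0, 111 and 69.2 TPM, topoisomerase *Top2a* at 256, 291 and 180, and the replication clamp *Pcna* at 397, 482 and 343. The order was the same across the list, since 36 of the 40 genes were highest in m2 and 34 were lowest in m3, where among all 9896 genes with a mean of at least 10 CPM 39.4% were highest in m2 and 43% lowest in m3. Of the 40 genes, edgeR called 0 in either direction against the treated tumors. An unadjusted p under 0.05 was reached by 7, all lower in vehicle, where 8.74% of all genes were. DESeq2 called 5 lower, against 3.86% of all genes, and limma-voom called 0.

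Genes of the pathways mutated in rhabdomyosarcoma were also present, and 39 of 47 reached 1 TPM in all 3 tumors. *Cdk4* was at 505, 536 and 523 TPM, *Ccnd1* at 335, 370 and 305, *Trp53* at 246, 264 and 267, and *Myc* at 171, 149 and 187. The tumor suppressor locus *Cdkn2a* was transcribed at 159, 120 and 153 TPM. Among the Ras genes, *Hras* was at 68.6, 76.1 and 71.8 TPM and *Nras* at 49.1, 55.5 and 50.1. RNA levels say nothing of mutations in these genes. *Cyp1a1* and *Cyp1a2*, which mark a response to aryl hydrocarbons such as methylcholanthrene, had at most 1 count in any vehicle tumor, although their receptor *Ahr* was at 12.4, 10.8 and 11.9 TPM.

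Among 17 abundant noncoding genes, the growth arrest RNA *Gas5* was highest at 1326, 1524 and 1594 TPM, and *Neat1*, the scaffold of nuclear paraspeckles, was at 426, 389 and 658, highest in m3.

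The targets of the study's drugs were measured in their untreated state. Tubulins, which vincristine binds, summed to 4037, 4123 and 4013 TPM, led by *Tuba1b* at 1477, 1610 and 1432 and *Tubb5* at 1050, 1059 and 1113. Of the folate receptors, *Folr2*, which is known from macrophages, was at 27.8, 27.4 and 37.4 TPM, and *Folr1*, the epithelial form, had at most 3 counts. The folate carrier *Slc19a1* was at 21.0, 26.6 and 26.7 TPM. The vincristine efflux pumps *Abcc1* and *Abcb1b* were at 41.9, 57.3 and 44.9 TPM and at 22.3, 23.0 and 15.6.

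Among the lists of leukocyte, fibroblast, vascular, fat, blood, skin and nerve markers, the macrophage list had the highest summed TPM in each vehicle tumor. The lists differ in genes and size, so their sums do not rank cell types. Transcripts of host and cancer cells were not told apart. All 20 macrophage markers were measured, 19 reached 1 TPM in every vehicle tumor, and the list summed to 10208, 6032 and 8979 TPM, or 1.02%, 0.603% and 0.898% of all transcripts. Lysozyme (*Lyz2*) was at 1918, 1472 and 2233 TPM, the complement gene *C1qa* at 990, 661 and 702, *Cd68* at 177, 155 and 169, and *Adgre1*, the F4/80 antigen, at 69.0, 56.5 and 55.4. Apolipoprotein E (*Apoe*) was at 3424, 1256 and 3237 TPM. Its value in m2 was below all treated tumors (2016 to 2847 TPM), and its values in m1 and m3 were above all of them. Of the 18 macrophage genes at 10 CPM, 14 were highest in m1 and 14 lowest in m2, against 31.3% and 27.1% of all 9896 genes at that level. The monocyte receptor *Ccr2* broke that order, at 26.8, 16.2 and 5.05 TPM, with m3 lowest.

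Each list of the other leukocytes summed to less than the macrophage list in every vehicle tumor. The dendritic and MHC class II list came to 4146, 551 and 191 TPM, of which the class II chaperone *Cd74* alone supplied 1959, 261 and 91.0. Neutrophil markers summed to 16.5, 21.5 and 25.2 TPM, and *Ly6g*, the defining surface antigen, had 0 counts in the 3 tumors. T and NK cell markers summed to 71.1, 19.7 and 8.82 TPM, with *Cd3e* at 4.26, 0.390 and 0.196 and *Cd8a* at 7.66, 1.28 and 0.508. B and plasma cell markers summed to 9.54, 3.46 and 3.11 TPM and mast cell markers to 9.25, 7.71 and 2.83. In the T and NK, B and mast cell lists m1 was the highest tumor and m3 the lowest.

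Extracellular matrix genes were abundant, while markers of fibroblasts were low. The matrix list summed to 8272, 7335 and 8712 TPM, and 49 of its 56 genes reached 1 TPM in every vehicle tumor. Biglycan (*Bgn*) was at 1636, 1207 and 1926 TPM, *Sparc* at 921, 960 and 1001, the fibrillar collagens *Col3a1* and *Col1a2* at 730, 584 and 850 and at 728, 652 and 729, and fibronectin (*Fn1*) at 666, 553 and 719. The 12 fibroblast markers summed to only 192, 152 and 125 TPM, of which *Cd34*, which endothelial cells also carry, made up 73.5, 62.1 and 66.6. Decorin (*Dcn*) was at 17.9, 8.51 and 7.10 TPM, *Pdgfra* at 7.49, 4.14 and 4.78, and lumican (*Lum*) at 4.30, 2.40 and 0.659. All 3 of these fibroblast genes were highest in m1. Of the 7 fibroblast markers with a mean of at least 10 CPM, 5 were highest in m1 and 2 in m2, against 31.3% and 39.4% of all 9896 genes at that level.

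Endothelial markers summed to 237, 162 and 177 TPM, and 15 of 16 reached 1 TPM in every vehicle tumor. The junction protein *Cdh5* was at 28.3, 21.1 and 24.8 TPM, *Pecam1*, which encodes CD31, at 25.7, 18.9 and 19.5, and the diaphragm protein *Plvap* at 46.0, 25.7 and 33.1. EdgeR called 0 of the 16 against the treated tumors. An unadjusted p under 0.05 was reached by 12 that were lower in vehicle and 1 that was higher, DESeq2 called 10 lower and 1 higher, and limma-voom called 0. Of all genes tested, 8.74% were lower and 8.81% higher at an unadjusted p under 0.05, and DESeq2 called 3.86% lower and 3.77% higher. The endothelial list of the treated tumors summed to 224 to 300 TPM, so m2 and m3 lay below all 9 treated tumors and m1 within their range. Markers of pericytes and smooth muscle summed to 245, 217 and 215 TPM, below the 251 to 554 of the treated tumors. The difference was not shared by the whole list, whose median log2 difference was -0.10. Of its 12 genes edgeR called 0, an unadjusted p under 0.05 was reached by 3, all lower in vehicle, DESeq2 called 3 lower and limma-voom called 0. That list shares *Des* with the muscle genes, and *Acta2* alone was at 68.6, 77.8 and 59.1 TPM.

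**Figure D3:**
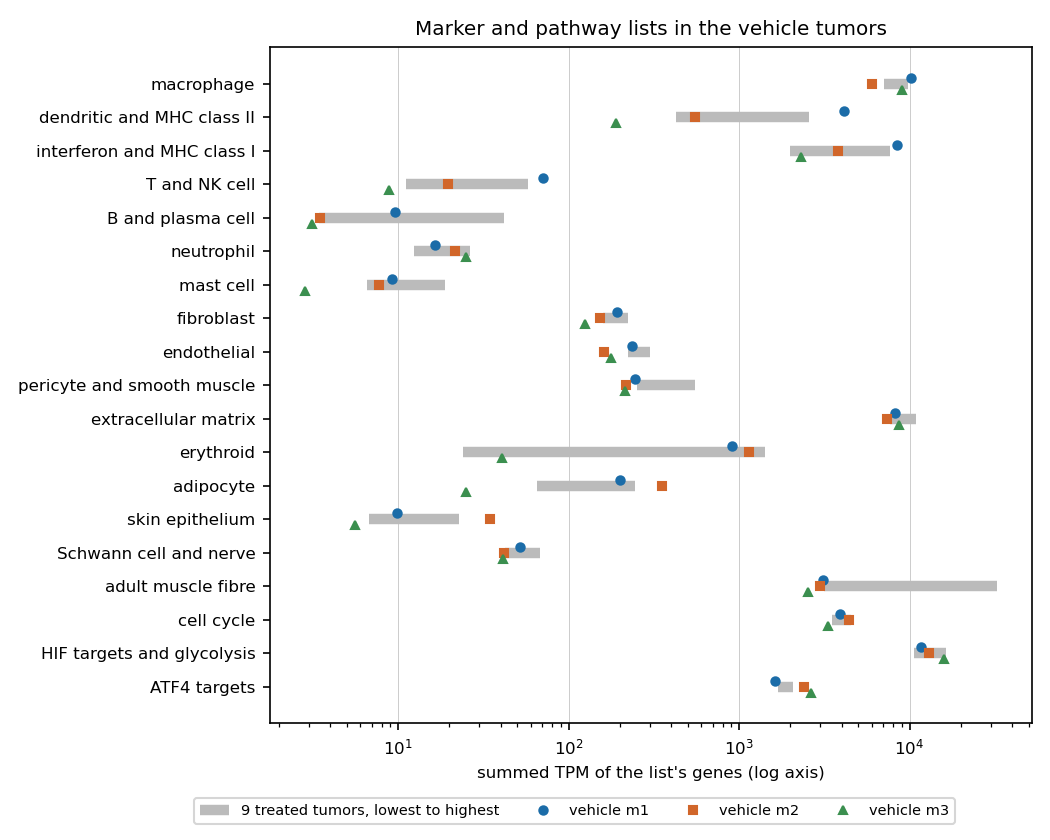
Summed TPM of 19 marker and pathway lists on a log axis, with symbols for the vehicle tumors m1, m2 and m3 and a grey bar from the lowest to the highest of the 9 treated tumors. The dendritic and MHC class II list lies at 4146 in m1 and 191 in m3, the erythroid and adipocyte lists are lowest in m3 among the vehicle tumors, and the adult muscle fibre list of all 3 vehicle tumors lies left of the grey bar.

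The 3 vehicle tumors were alike for most genes and far apart for a few. Among the 9896 genes with a mean of at least 10 CPM in them, the median gene ranged 1.21-fold from the lowest to the highest tumor, and 97.62% ranged less than 2-fold. A range of at least 4-fold, on log2 of CPM plus 0.1, was found for 59 genes, 0.596% of those measured. Tumor m1 was the highest for 46 of the 59, m2 for 10 and m3 for 3, while m3 was the lowest for 56. The other groups had 72 (VCR), 123 (RCM1-NPFA) and 80 (both drugs) such genes by the same rule, and 1 tumor was the highest for most of them in the VCR group (m5, 67 of 72) and in the RCM1-NPFA group (m9, 114 of 123). The 59 genes were picked by their range, so their values are a description with no test.

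The antigen presentation genes of MHC class II were higher in m1 than in m2 and m3. The invariant chain *Cd74*, which guides class II molecules, was at 1326, 176 and 64.8 CPM in m1, m2 and m3. The class II chains followed the same order, with *H2-Aa* at 531, 65.3 and 19.996 CPM, *H2-Ab1* at 437, 62.8 and 26.3, and *H2-Eb1* at 493, 60.3 and 18.8. *Ciita*, the coactivator that class II promoters depend on, was at 52.1, 8.57 and 4.59 CPM. For each of these 5 genes m1 lay above all 9 treated tumors and m3 below all of them. Markers of the dendritic cells that carry class II in abundance moved in the same order at low levels, with *Itgax* at 19.2, 7.43 and 5.45 TPM and *Flt3* at 1.29, 0.635 and 0.103, and their part in the class II levels was not tested. Residual 28S ribosomal RNA (*Rn28s1*) took 1.42%, 0.828% and 0.668% of the counts, also in the order m1, m2, m3, and its part was not tested either.

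The promoters of *H2-Aa* and *H2-Eb1* are shown because these genes moved together across the 3 tumors. Each is the 250 bases before the RefSeq start in GRCm38.p6, 5′ to 3′ along the gene, with the Y box core GATTGG and the X box letters TAGCAAC in capitals on either strand. *H2-Aa* lies on the minus strand at chr17:34287824-34288073 and *H2-Eb1* on the plus strand at chr17:34305617-34305866.
H2-Aa: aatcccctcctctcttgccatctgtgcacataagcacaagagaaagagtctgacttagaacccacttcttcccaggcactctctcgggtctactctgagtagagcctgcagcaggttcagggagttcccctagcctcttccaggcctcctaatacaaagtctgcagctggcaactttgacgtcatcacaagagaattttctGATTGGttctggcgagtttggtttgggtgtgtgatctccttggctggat
H2-Eb1: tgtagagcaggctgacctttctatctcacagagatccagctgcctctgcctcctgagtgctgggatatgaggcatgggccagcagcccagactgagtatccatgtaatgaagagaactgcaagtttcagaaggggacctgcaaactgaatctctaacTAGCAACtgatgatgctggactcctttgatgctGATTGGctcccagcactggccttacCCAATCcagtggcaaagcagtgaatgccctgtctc
*H2-Aa* held 1 match to the Y box core, 49 bases before the start, and *H2-Eb1* held 2, at 60 and 35 bases. The X box letters matched *H2-Eb1* once, 93 bases before the start, and *H2-Aa* 0 times, which says only that these exact letters are not in that window. Of 32851 RefSeq promoter windows, 14.6% held the Y box core and 3.16% the X box letters. The motifs do not overlap each other, and binding was not measured.

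Genes of the interferon response and of MHC class I followed class II. The list of 19 summed to 8405, 3795 and 2324 TPM, and 18 of the 19 genes were highest in m1, against 31.3% of all genes at 10 CPM. A range of at least 4-fold was found for 8 of them, against 0.596% of all genes at that level. The class I chains *H2-K1* and *H2-D1* were at 1711, 596 and 233 CPM and at 1806, 759 and 388. *Nlrc5*, the class I coactivator, was at 191, 65.9 and 17.2 CPM, the peptide transporter *Tap1* at 237, 83.8 and 47.1, and the interferon-induced chemokine *Cxcl9* at 62.9, 23.0 and 8.29. The order m1, m2, m3 was again the same for all 5. H2 class I genes are near-identical to one another, so their separate levels are less certain than their sum. Of the 59 wide-ranging genes, 16 lie on chromosome 17, which carries the H2 complex and 5.41% of all genes at 10 CPM. Another count is that 13 of the 59 belong to the class II or the interferon and class I list. These lists hold 6 and 19 of the 9896 genes at 10 CPM, and they were chosen with earlier results of these data known. T and NK cell markers, given above, followed the same order, and *Il2rb*, which they share with few other cells, was at 25.7, 6.41 and 2.20 CPM. Their part in the interferon genes was not tested. Against the treated tumors the class I list of m1 lay above all 9 (2001 to 7712 TPM), and m2 and m3 lay within that range.

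Fat and blood genes separated m3 from the other tumors instead. The adipocyte markers summed to 201, 352 and 24.98 TPM, with complement factor D (*Cfd*, adipsin) at 27.7, 46.5 and 0.129 CPM and the lipid carrier *Fabp4* at 34.2, 63.6 and 6.08. Outside that list, the lipid droplet protein *Plin4* was at 7.37, 22.5 and 0.356 CPM. Haptoglobin (*Hp*) was at 24.9, 81.4 and 1.23 CPM and carbonic anhydrase 3 (*Car3*) at 16.7, 30.1 and 0.226. Each of these 5 genes was highest in m2 and lowest in m3. The widest range of all belonged to *Mup22*, a major urinary protein, at 17.8, 34.3 and 0 CPM, a member of a family of near-identical genes whose reads cannot be assigned with certainty.

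Erythroid genes summed to 906, 1150 and 40.9 TPM in the vehicle tumors and to 23.9 to 1416 in the treated ones, with a treated median of 67.6. The beta globins *Hbb-bs* and *Hbb-bt* were at 103, 133 and 3.58 CPM and at 19.7, 21.4 and 0.104, and the alpha globins *Hba-a1* and *Hba-a2* at 71.5, 95.7 and 5.50 and at 41.6, 57.1 and 1.61. The globin copies of each pair are nearly identical. The part of blood left in the dissected pieces was not tested.

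**Figure D4:**
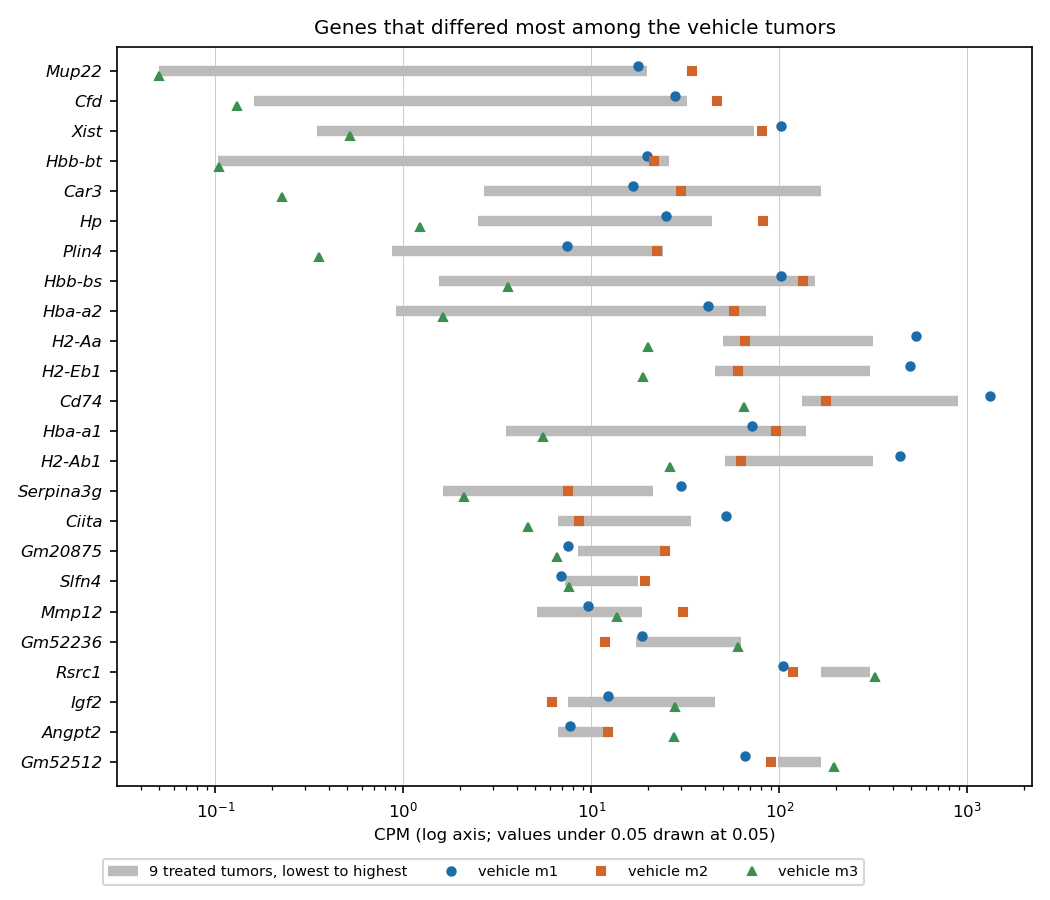
CPM on a log axis of the 15 genes with the widest range among the vehicle tumors and of the genes with the largest excess in a single tumor, with symbols for m1, m2 and m3 and a grey bar from the lowest to the highest of the 9 treated tumors. The class II genes and *Ciita* stand to the right in m1, the globin, adipocyte and *Xist* values of m3 lie far to the left of m1 and m2, and *Igf2*, *Angpt2* and *Rsrc1* are highest in m3.

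Genes of the integrated stress response ran the opposite way to class II. The ATF4 target list summed to 1631, 2407 and 2643 TPM, and all 13 of its genes at 10 CPM were lowest in m1, against 29.9% of all genes at that level. *Chac1*, a glutathione-degrading enzyme, was at 12.5, 25.4 and 32.5 TPM, the pseudokinase *Trib3* at 14.2, 32.9 and 40.3, *Ddit3*, which encodes CHOP, at 47.9, 72.2 and 109, and asparagine synthetase (*Asns*) at 90.4, 156 and 154. The list was chosen with earlier results of these data known, and *Chac1*, *Trib3*, *Ddit3* and *Asns* after their values were seen. *Chac1* lay between 7.73 and 22.8 TPM in the treated tumors, below m2 and m3 and around m1. Against the treated groups edgeR called 0 of the 16 listed genes. An unadjusted p under 0.05 was reached by 6, all higher in vehicle, where 8.81% of all genes were. DESeq2 called 3 higher, against 3.77% of all genes, and limma-voom called 0.

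Hypoxia and glycolysis genes were highest in m3. The list summed to 11684.5, 12942 and 15849.9 TPM, with 15 of 19 genes at 10 CPM highest in m3 and 15 lowest in m1, against 29.4% and 29.9% of all 9896 genes. Carbonic anhydrase 9 (*Car9*), a target of hypoxia-inducible factor, was at 41.1, 81.7 and 117 TPM, the glucose transporter *Slc2a1* at 111, 145 and 220, and *Bnip3* at 123, 135 and 206. Each of the 3 genes, chosen after their values were seen, was higher in m3 than in all 9 treated tumors, whereas the list sum of m3 lay within the treated range of 10689 to 16269 TPM. *Angpt2*, which loosens vessel walls, was at 7.64, 12.2 and 27.7 CPM against 6.65 to 12.4 in the treated tumors. Of the 20 genes, edgeR called 0. An unadjusted p under 0.05 was reached by 9 that were higher in vehicle and 1 that was lower, DESeq2 called 2 higher and 1 lower, and limma-voom called 0. Over all genes these shares were 8.81% and 8.74% at an unadjusted p under 0.05 and 3.77% and 3.86% by DESeq2.

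The genes with the largest excess in m3 alone were *Gm52236*, *Rsrc1*, *Igf2*, *Angpt2* and *Gm52512*. *Rsrc1*, which encodes a splicing factor, was at 104, 118 and 324 CPM, and m3 lay just above the treated range of 166 to 302 while m1 and m2 lay below it. Those of m2 were *Gm20875*, *Hp*, *Plin4*, *Slfn4* and *Mmp12*, and macrophage elastase (*Mmp12*) was at 9.58, 30.8 and 13.7 CPM against 5.14 to 18.6 in the treated tumors. At a 2-fold margin over both other tumors, 64 genes stood out as high in m1, 6 in m2 and 6 in m3, and 59 genes stood out as low in m3.

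The tumors also differed in transcripts of the sex chromosomes. *Xist*, the RNA that coats the inactive X, was at 9.38 and 7.45 TPM in m1 and m2 and at 0.0450 in m3. The Y-linked genes *Ddx3y* and *Eif2s3y* were at 0.0115, 0.0375 and 1.44 TPM and at 0.197, 0.274 and 5.30. *Kdm5d* had 0 counts in m1 and m2 and was at 0.641 TPM in m3, while *Uty* was at 0.235, 0.118 and 0.841 TPM, so that some Y-linked genes had counts above the floor in m1 and m2 as well. Tumor m3 was the only vehicle tumor with *Ddx3y* at 1 TPM, among 7 of the 12 tumors, although the injected line was raised in a female. In the 6 treated tumors at that level *Ddx3y* lay between 1.61 and 2.53 TPM and *Eif2s3y* between 5.87 and 9.68, above m3 in each. In the vehicle group the level of Y-linked transcripts and the other features of m3 cannot be told apart.

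Compared as a group with all treated tumors, the vehicle tumors differed in few genes. Of 17602 genes tested by edgeR, 8 were higher in vehicle (0.0454%) and 4 lower (0.0227%), all at an adjusted p of 0.0799, and 3090 had an unadjusted p under 0.05. Since each tumor came from its own mouse, the test weighs the difference between the groups against the spread between tumors within groups. Every vehicle tumor lay above all 9 treated tumors for 1.41% of the genes tested and below them for 2.5%. The number of calls moved between 0 and 1342 with the tool and with the tumors kept, as given in the closing section. Tumor by tumor, leaving out m2 took the count to 0 and leaving out m3 took it to 477.

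Among the genes higher in vehicle, *Arhgap29*, a GTPase activating protein, was at 91.6, 110 and 119 CPM in m1, m2 and m3 and at 42.8 to 80.2 in the treated tumors. Its log2 difference was 0.81 ± 0.13 (SE) with an adjusted p of 0.0799 by edgeR. *Egfr* was the only receptor tyrosine kinase of the 28 tested that edgeR called, where DESeq2 called 3, all higher in vehicle. Of all genes tested, edgeR called 0.0454% higher and DESeq2 3.77%. *Egfr* was at 94.1, 103 and 101 CPM against 55.9 to 75.2, a log2 difference of 0.51 ± 0.067. *Rsbn1* stood at 21.8, 23.2 and 21.3 CPM against 9.18 to 15.3 (log2 difference 0.79 ± 0.12). The chromatin factor *Setd5* was at 180, 179 and 155 CPM against 108 to 148 (0.36 ± 0.058), and *Zfp280c* and the uncharacterised *2610005L07Rik* were also wholly above the treated tumors. For *Gm46827* and *Rreb1* the groups overlapped, since m3 lay within the treated range at 9.80 CPM against 5.92 to 10.9 and at 65.9 against 52.0 to 68.2.

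The 4 genes lower in vehicle did not overlap with the treated tumors. *Ebp*, an isomerase of cholesterol synthesis, was at 35.0, 35.3 and 29.1 CPM against 42.4 to 53.6, a log2 difference of -0.50 ± 0.078. *Mgat3*, a glycosyltransferase that adds bisecting sugars to glycoproteins, was at 15.8, 14.5 and 15.9 CPM against 20.4 to 25.9 (-0.61 ± 0.085). *Plac9a* and *Frmd5* were at low levels, with 3.26, 2.90 and 3.26 CPM against 5.52 to 10.7 and 0.633, 0.750 and 0.707 CPM against 1.49 to 3.04. Their log2 differences were -1.17 ± 0.18 and -1.66 ± 0.27. No member of the macrophage, dendritic, T cell or interferon lists was called in either direction by edgeR, DESeq2 or limma-voom. An unadjusted p under 0.05 was reached by 1 dendritic and class II gene and by 0 of the others. Of all genes tested, 8.74% were lower and 8.81% higher at that level, and DESeq2 called 3.86% lower and 3.77% higher. Class II and interferon genes ranged widely among the vehicle tumors, so the lack of calls does not show that the groups were alike.

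**Figure D5:**
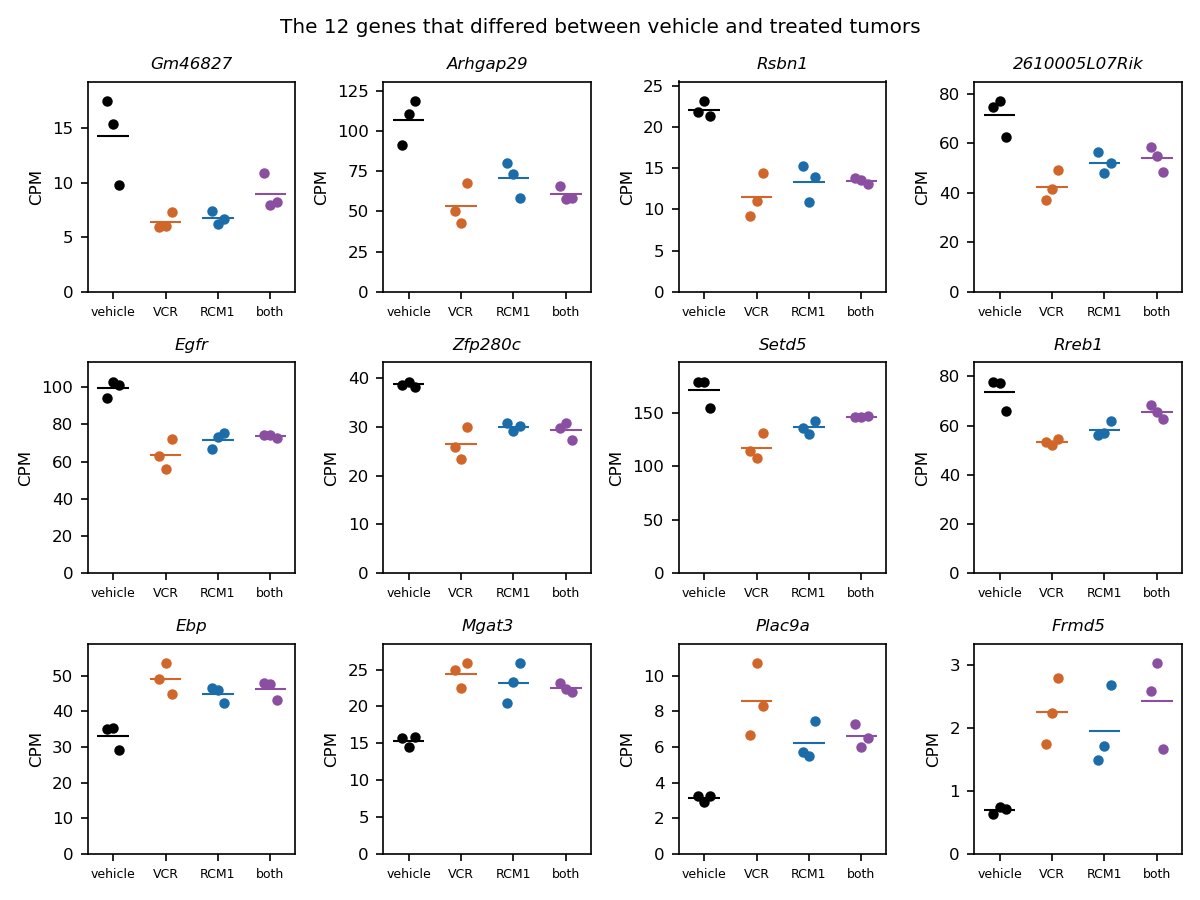
CPM of the 12 genes that edgeR called between vehicle and treated tumors, 1 panel per gene with a linear axis from 0, a point per tumor and a line at the mean of the 3 tumors in each group (vehicle, VCR, RCM1-NPFA and both). The 8 genes higher in vehicle come first, led by *Gm46827* and *Arhgap29*, and the 4 lower genes end with *Frmd5*, whose vehicle tumors lie between 0.633 and 0.750 CPM.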

How the data were processed

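RNA of 12 Rd76-9 tumors was sequenced from poly-A libraries. The kit is named as stranded and the libraries as non-stranded, so overlapping genes on opposite strands may share reads. The authors assigned reads to transcripts of GRCm38 with kallisto and deposited an estimated count and a TPM per transcript. Estimated counts and TPM were summed here over the 120299 transcripts of 38898 RefSeq genes, all matched by accession. Groups were taken from the titles. Levels with ± are mean ± SD of 3 tumors, and log2 differences are given ± SE from the fit of all 12 tumors.

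The vehicle group was compared with the mean of the 3 treated groups in 1 fit of rounded counts (edgeR 4.0.16, R 4.3.3, TMM, filterByExpr at a minimum count of 10, quasi-likelihood F test, Benjamini-Hochberg threshold 0.1). DESeq2 1.42.0, limma 3.58.1 and the other alternatives are given below. Scripts were tested on simulated data. Sequences are from RefSeq, GRCm38.p6. No batch is given in the labels.

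The members and the 32 gene lists (681 genes, 678 measured) were chosen with earlier results of these data known. Counts of list members by order or range, set beside shares of all genes, are therefore a description only. Names came from the 20 most abundant genes, up to 6 of the highest members and the defining and undetected members of each list, the 15 widest genes, the 5 most raised genes per tumor, and the called genes, and a few genes are not reported here. *Asns*, *Bnip3*, *Car9*, *Chac1*, *Cxcl9*, *Ddit3*, *Foxm1*, *Gas6*, *Igf1r*, *Mef2a*, *Mki67*, *Nlrc5*, *Slc2a1*, *Tap1* and *Trib3* were chosen after their values were seen.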

Additional observations from a re-analysis of the deposited data

How the results depend on the processing

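The count of genes called between vehicle and treated tumors was the least stable result. It was 12 also with DESeq2's size factors and with offsets for effective length, where 10 of the 12 were shared. It was 74 with no filter beyond 1 count, 87 at a mean of at least 50 counts, 6 with the 9 treated tumors as 1 group, 1342 by the DESeq2 Wald test, 0 by limma-voom (2829 at an unadjusted p under 0.05) and 0 by edgeR at a threshold of 0.05 (3090 at an unadjusted p under 0.05). Without 1 tumor it ranged from 0 to 477, and it was 0 without m2, m4, m5, m8, m10 or m12, 1 without m11, 29 without m7, 62 without m1, 130 without m9, 364 without m6 and 477 without m3. A term for Y-linked transcripts gave 18 calls, 7 of them shared, and DESeq2 at 0.05 gave 807, both chosen after seeing the data. Of 264 values of the 12 genes under these alternatives, 0 reversed and 127 lost their call. The cause was not tested.

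The 20 most abundant genes held 7.86% of CPM without length correction and 14.0% of TPM over curated transcripts. At 10 TPM, 8297 genes were detected in all vehicle tumors. Without length correction the fibroblast, endothelial and macrophage lists held 0.0228%, 0.0341% and 0.575%, against 0.0156%, 0.0192% and 0.841% of TPM. Genes with a 4-fold range numbered 221 at a mean of at least 1 CPM, and 13 to 58 without 1 vehicle tumor, with 13 without m1 and 14 without m3. Without 1 vehicle tumor, the genes at 1 TPM, the 20 most abundant genes and the other list shares moved by less than the spread between tumors or under 1.5 times. No paired analysis was possible because the numbers m1 to m12 are never shared between groups. Depth limits the silent genes, where 3 counts or fewer were not told from 0.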
